A study of Mus musculus with 9 samples.

Results

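This account compares 1 library of fresh BFU-E with 2 libraries of BFU-E that had been cultured with dexamethasone (Dex, a synthetic glucocorticoid), and asks which of the differences that culture brings were smaller with Dex. The 3 libraries come from a series of 9, and 10125 of its 19840 gene names stood at 1 RPKM (reads per kilobase of transcript, scaled to sequencing depth) or more in at least 1 of the 3. BFU-E, the burst-forming units erythroid, were sorted from C57BL/6 mouse fetal liver at embryonic day 13.5 to 14.5. The fresh cells were the 10% lowest for the transferrin receptor CD71 among Kit-positive cells that lacked CD34, CD41, CD16/32, CD3, B220, Gr-1, Mac-1 and Ter119. The CD71 sort used that same gate, whereas the CD71/CD24a sort took the 10% lowest for both CD71 and CD24a, so the fresh library shares its gate with only 1 of the cultures. In both sorts the cells spent 4 hours in serum-free medium with stem cell factor (100 ng/mL), IGF-1 (40 ng/mL) and erythropoietin (2 U/mL), and 4 more hours with 100 nM Dex or with water. A further pair from the CD71/CD24a sort received 333 µM DMOG, an inhibitor of the oxygen-sensing hydroxylases and related dioxygenases, with or without Dex. No group carried a mutation or transgene, and each condition was 1 library, so fresh BFU-E has no replicate spread of its own and every comparison with it is a description of size.

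BFU-E are the earliest progenitors committed to red cells. They divide and mature into CFU-E, which depend on erythropoietin and go on to make haemoglobin. Glucocorticoids bind the glucocorticoid receptor, a transcription factor, and are known to prolong the self-renewal of BFU-E during stress erythropoiesis.

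Levels below are RPKM divided by 1 scaling factor per library, and differences are on the log2(normalised RPKM + 1) scale, which understates the change of low genes. A culture loss was a gene at least 2-fold lower than fresh BFU-E in both water cultures. It was called prevented when both Dex cultures stood within 2-fold of fresh and at least 1.5-fold above their own water culture. It was called partly prevented when the 1.5-fold difference was there but at least 1 Dex culture stayed 2-fold or more below fresh, and kept when both did. The water libraries enter both the loss and the Dex difference, so these classes are not a test of Dex. A low water value favours both. Dex was added after 4 hours of culture, and no library was taken at that time. A fall that did not occur with Dex and a fall followed by a rise therefore cannot be told apart. The word prevented is the name of a class only.

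The read depths estimated from the steps of the low values ran from 11.83 M reads (CD71 sort, water) to 19.04 M reads (CD71/CD24a sort, Dex) among the 5 libraries used here, with 18.41 M reads for fresh BFU-E. Ratios of levels are given with 95% exact intervals from the reads these depths imply, and cover counting error only. The fresh library stood apart in markers of other cells. The neutrophil and mast cell markers summed to 100.8 normalised RPKM in fresh BFU-E, to 28.8 and 28.5 in the CD71 sort with water and Dex, and to 6.83 and 6.64 in the CD71/CD24a sort. The summed hepatocyte markers were 72.4 in fresh BFU-E and 20.7 to 29.4 in the 4 cultures. Endothelial and stromal markers summed to 54.2 against 12.8 to 25.6, macrophage markers to 8.68 against 1.40 to 3.56, and lymphoid markers to 16.9 against 2.83 to 3.66. Megakaryocyte markers summed to 143.5 in fresh BFU-E against 71.9 to 106.6 in the cultures. Mpo, given below, made up most of the neutrophil and mast cell sum in fresh cells. The megakaryocyte sum includes Itga2b (CD41), itself a sort marker, and Itgb3, which was higher in the cultures. Of the defining markers, 2 of 19 on the neutrophil and mast cell list, 2 of 18 macrophage markers and 4 of 18 lymphoid markers were at 0 in all 5 libraries. These sums were lower in the cultures with and without Dex, and the part of such cells in the losses below was not tested. In bulk RNA, fewer cells of a type and less RNA per cell cannot be told apart.

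Most of the distance from fresh BFU-E was there with Dex. Among the 10125 genes, 546 (5.39%) were at least 2-fold lower in both Dex cultures and 248 (2.45%) were at least 2-fold higher, with a median difference of -0.07 over all genes. Without Dex, 661 of 10242 genes (6.45%) were culture losses and 446 (4.35%) were the mirror class, culture gains. Of the 661 losses, 451 were kept (4.4% of all genes and 68.2% of the losses), 12 were prevented (0.117% of all genes and 1.82% of the losses) and 9 were partly prevented (0.0879% and 1.36%). The other 192 losses fell in none of these classes, and 3 kept losses also met the rule for partly prevented. The median loss stood at 28.8% of its fresh level with water and at 32.3% with Dex in the CD71 sort, and at 26.1% and 25.8% in the CD71/CD24a sort.

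**Figure D1:**
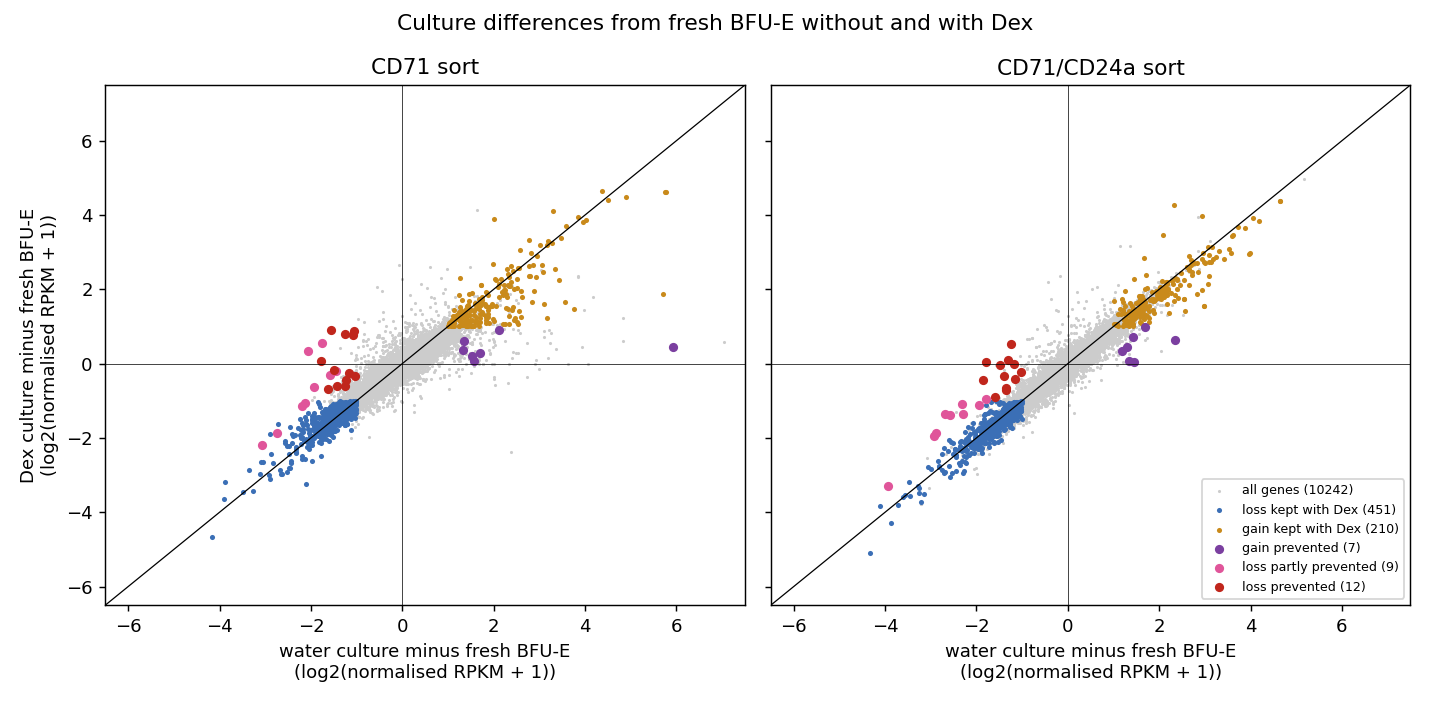
Difference from fresh BFU-E in the water culture (horizontal axis) and in the Dex culture (vertical axis) for 10242 genes, on the log2(normalised RPKM + 1) scale, 1 panel per sort. Points on the diagonal have the same level with and without Dex; the 451 kept losses lie along it, and the 12 prevented losses lie above it near 0 on the vertical axis.

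The 12 prevented losses were Zfp1, Frmd4a, Per1, Egln3, Ank, Rcsd1, Ier3, Sh2d4a, Ndrg1, Znrf1, Trim58 and Gna14. In the water cultures their median level was 37.0% of fresh in the CD71 sort and 32.6% in the CD71/CD24a sort. With Dex it was 84.8% and 81.0%, with ranges of 55.6 to 198% and 51.3 to 148%. No single pathway list held more than 2 of them, and they are given here by role.

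Zfp1, which encodes a zinc finger protein, stood at 5.29 in fresh BFU-E, at 0.834 and 0.814 in the CD71 and CD71/CD24a water cultures, and at 5.64 and 5.44 with Dex. Both Dex cultures were at the fresh level within counting error, at ratios of 1.07 (95% interval 0.849 to 1.34) and 1.03 (0.843 to 1.26). Per1, a repressor of the circadian clock and a classical glucocorticoid-induced gene, had 12.5 in fresh cells, 4.67 and 3.85 with water, and 22.5 and 12.2 with Dex. Its Dex level was above fresh in the CD71 sort, at 1.80 times (1.66 to 1.95), and level with fresh in the CD71/CD24a sort, at 0.981 times (0.904 to 1.06).

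Egln3 and Ndrg1 are known targets of the hypoxia-inducible factor HIF. Egln3, a prolyl hydroxylase that marks the HIF alpha subunits for destruction, was at 7.96 in fresh BFU-E, 2.02 and 1.48 with water, and 15.8 and 5.65 with Dex. It overshot fresh in the CD71 sort (1.98 times, 1.74 to 2.26) and stayed below it in the CD71/CD24a sort (0.710 times, 0.613 to 0.823). Ndrg1, a stress-response gene, was at 3.83 in fresh cells, 0.796 and 0.894 with water, and 2.17 and 2.09 with Dex. In the annotation 19.2% of its exon bases overlap another gene, so a part of these reads cannot be assigned. They were 2 of the 3 culture losses among the 33 HIF targets compared; the other, Car9, was kept. In both Dex cultures 1 of the 33 was 2-fold lower and 3 were 2-fold higher than in fresh BFU-E, with a median of 0.20. The shares over all genes were 5.39% and 2.45%. Over the 3 Dex pairs described below, 6 of the 32 members tested rose and 0 fell in limma, against 1.39% and 0.629% of all genes.

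Frmd4a, a scaffold protein of the FERM family, was at 15.7 in fresh BFU-E, 6.92 and 6.09 with water, and 27.6 and 23.2 with Dex. It was above fresh in both sorts with Dex, by 1.76 times (1.65 to 1.87) and 1.48 times (1.39 to 1.56). Ank, a membrane protein of pyrophosphate metabolism, followed the same order, at 24.9, then 11.5 and 9.48, then 46.6 and 26.5. Rcsd1, a regulator of actin capping protein, was at 8.93 in fresh cells, 2.52 and 3.39 with water, and 7.82 and 8.92 with Dex.

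Ier3, an immediate early gene tied to cell survival, was at 6.60 in fresh BFU-E, 2.41 and 2.75 with water, and 5.41 and 5.55 with Dex. Trim58, an erythroid ubiquitin ligase, was at 16.8, then 6.49 and 5.77, then 10.7 and 13.1. Sh2d4a, an SH2-domain adaptor, was at 9.89, then 4.28 and 3.87, then 7.65 and 7.15. In each of these 3 genes the fresh value stood above both Dex cultures, and both Dex cultures stood above both water cultures.

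The members nearest the 2-fold threshold were Znrf1, a ubiquitin ligase, and Gna14, a G protein alpha subunit. Znrf1 was 0.44 and 0.90 below fresh in the CD71 and CD71/CD24a Dex cultures on the log2 scale, and Gna14 was 0.69 and 0.70 below. Just outside it, Tns1 was 0.31 and 1.10 below fresh, and Pik3ip1 was 1.05 and 1.12 below.

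The partly prevented losses were 0610040J01Rik, Tns1, Acp5, Zfp36l2, Tent5c, Trib2, Txnip, Pik3ip1 and Aqp1. Zfp36l2, an RNA-binding protein that speeds the decay of AU-rich messages and is needed for BFU-E self-renewal, was the most abundant of them in fresh BFU-E, at 244. It stood at 62.9 and 32.2 with water and at 157 and 66.5 with Dex. It was thus 0.644 times fresh (0.627 to 0.662) in the CD71 sort and 0.273 times (0.264 to 0.281) in the CD71/CD24a sort. Aqp1, the red cell water channel, was at 219 in fresh cells, 25.2 and 13.3 with water, and 47.3 and 21.5 with Dex, still 0.217 times fresh (0.206 to 0.228) or lower.

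Tns1, an actin-binding protein, was at 23.9, 7.34 and 3.98, and 19.2 and 10.7 in the same order of fresh, water and Dex. Acp5, tartrate-resistant acid phosphatase, was at 15.4, 2.92 and 1.74, and 19.6 and 5.27. Trib2, a pseudokinase, was at 24.2, 2.76 and 2.30, and 5.87 and 5.59. Of these, Tns1 and Acp5 were within 2-fold of fresh in the CD71 sort only, and Trib2 in neither. The median partly prevented loss with Dex was at 64.4% of fresh in the CD71 sort and at 32.5% in the CD71/CD24a sort, a difference between the sorts that was not tested.

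Kit, the stem cell factor receptor on which every sort was gated, came close to this class. It was at 175 in fresh BFU-E, 45.4 and 43.3 with water, and 93.0 and 65.3 with Dex. The Dex difference was 1.02 in the CD71 sort and 0.58 in the CD71/CD24a sort, just under the 1.5-fold rule there. With Dex, Kit stood at 0.530 times fresh (0.515 to 0.545) and 0.372 times fresh (0.362 to 0.383).

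**Figure D2:**
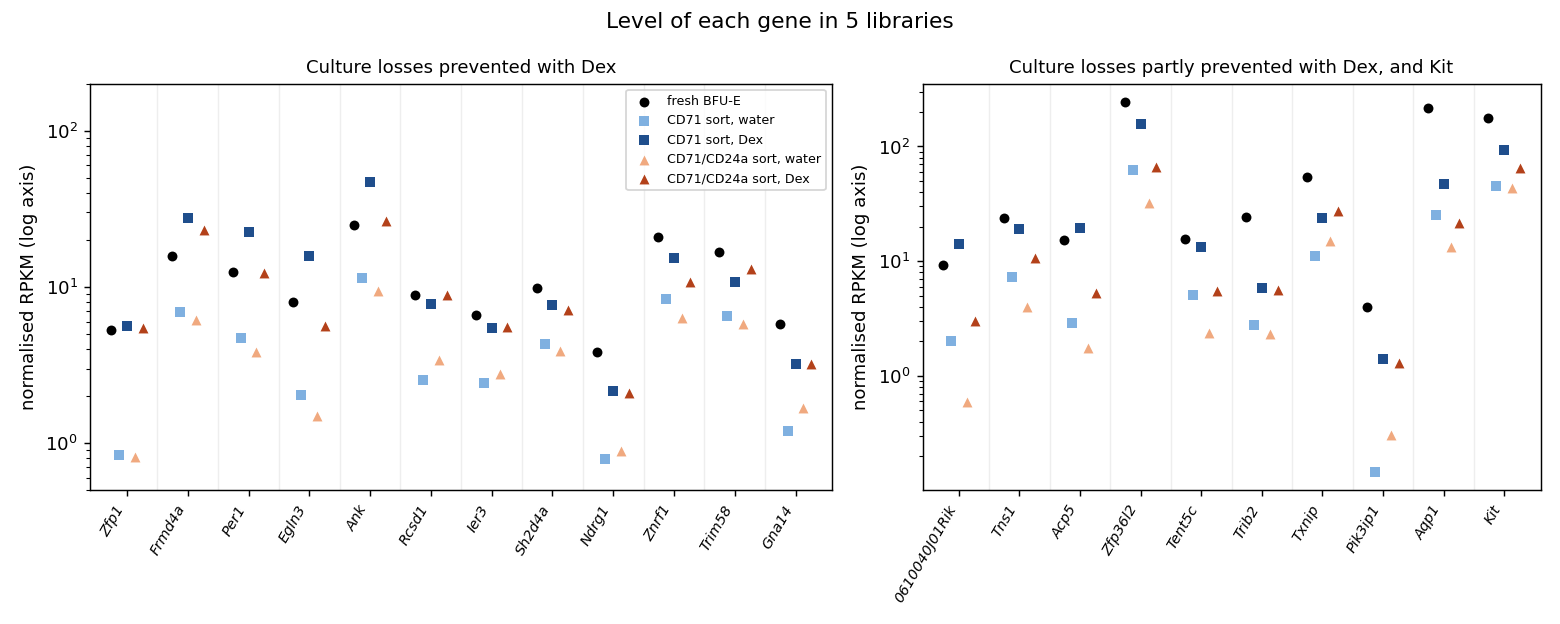
Level of the 12 prevented losses (left) and of the 9 partly prevented losses and Kit (right) in normalised RPKM on a log axis, 1 point per library, with no error bars because each condition is 1 library. The dark Dex points lie above the pale water points of the same sort for every gene shown; Zfp1 sits at 5.64 and 5.44 with Dex against 5.29 in fresh BFU-E.

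The Dex difference itself could be tested over 3 pairs (CD71, CD71/CD24a, and CD71/CD24a with DMOG). The last 2 pairs share a sort and differ in DMOG, so the SE and adjusted p do not stand for 3 independent sorts. limma with the pair as a block called 133 of 9535 genes (1.39%) as risen with Dex and 60 (0.629%) as fallen. Without the pair term those counts were 12 and 2, and with no filter on low values 18 and 3, so the calls rest on both choices. All 12 prevented losses rose, with limma adjusted p from 9.2e-04 for Frmd4a to 0.043 for Trim58. 2 of those 3 pairs also chose the genes, so these calls are not separate evidence. A like limit holds for other genes named for their class or for their distance from fresh in the Dex cultures, which share libraries with the fit. Without the pair term 2 of the 12 were called, and likewise 2 without the filter. Without the CD71/CD24a pair 9 of 12 were.

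The DMOG pair shares no library with the rule, though its cells came from the same sort as the CD71/CD24a cultures. There, 9 of the 12 prevented losses and 6 of the 9 partly prevented losses were at least 1.5-fold higher with Dex, against 170 of 10242 genes (1.66%) in all. Among all 661 losses it was 27 (4.08%), and 5 (0.756%) were as much lower. Zfp1 was at 0.763 with DMOG and 6.34 with DMOG and Dex, Frmd4a at 6.38 and 21.7, and Zfp36l2 at 28.3 and 66.9. The 3 prevented losses that missed 1.5-fold on the log2(normalised RPKM + 1) scale were Ier3 (3.62 and 5.38), Trim58 (6.08 and 8.82) and Gna14 (1.5 and 2.62). The plain ratio of the Gna14 levels is above 1.5-fold, and the added 1 brings it below. Egln3 was high in this pair without Dex, at 16.4 with DMOG alone against 1.48 with water, and reached 35.6 with both agents. Kit was at 49.5 with DMOG and 79.0 with DMOG and Dex. In limma over all 3 pairs it rose by 0.76 ± 0.10 (SE, n = 3 pairs, adjusted p = 0.020).

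Immediate early genes were among the losses that remained with Dex. Of the 21 immediate early genes compared, 6 were 2-fold lower and 1 (Fosl1) 2-fold higher in both Dex cultures than in fresh cells. The shares over all genes were 5.39% and 2.45%. Their median was -0.84 against -0.07 for all genes. Of their 7 culture losses 5 were kept and 1, Ier3, was prevented. Among all 661 losses 68.2% were kept and 1.82% prevented, so the kept share of this list was near that of all losses. Fos, a subunit of the AP-1 transcription factor, was at 11.5 in fresh BFU-E, 0.118 and 0.0661 with water, and 0.141 and 0.0857 with Dex. Each Dex value rests on an estimated 4 reads, against 472 in fresh cells. Jun, the partner of Fos in AP-1, was at 53.4 in fresh cells, 2.04 and 1.69 with water, and 1.16 and 0.591 with Dex. With Dex it was 0.0217 times fresh (0.0162 to 0.0289) and 0.0111 times fresh (0.00802 to 0.0151). Jun also fell with Dex over the 3 pairs, by 0.60 on the log2 scale (limma adjusted p = 0.047). Egr1, a zinc finger factor of the same early response, was not lost: it stood at 10.9 in fresh cells, 5.83 and 10.1 with water, and 17.3 and 13.4 with Dex.

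Genes known to be induced by glucocorticoids were split. Of 24 compared, 5 were 2-fold lower in both Dex cultures than in fresh cells and 1 was higher, against 5.39% and 2.45% of all genes. The median was 0.50 in the CD71 sort and -0.12 in the CD71/CD24a sort, so its sign differed between the sorts. 10 of the 23 members that limma tested rose with Dex and 0 fell, against 1.39% and 0.629% of all genes. The 5 lower members were Dusp1, Zfp36, Zfp36l1, Nfkbia and Cdkn1c. Dusp1, a phosphatase that switches off MAP kinases, was at 24.3 in fresh BFU-E, 2.33 and 1.59 with water, and 2.17 and 1.57 with Dex. Zfp36, an RNA-decay factor of the Zfp36l2 family, was at 17.9, then 3.07 and 1.62, then 3.22 and 2.06. Dusp1 is on the immediate early list as well. By contrast Fkbp5, a co-chaperone of the glucocorticoid receptor, was at 32.0 in fresh cells, 22.4 and 22.9 with water, and 71.7 and 64.4 with Dex. It rose by 1.54 ± 0.07 (SE, n = 3 pairs, limma adjusted p = 9.2e-04). Tsc22d3, which encodes the anti-inflammatory protein GILZ, was at 10.8, then 7.25 and 5.83, then 19.0 and 18. The receptor itself, Nr3c1, was at 23.6 in fresh BFU-E, 10.9 and 11.7 with water, and 11.8 and 13.1 with Dex, so the 4 cultures stood together below fresh.

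**Figure D3:**
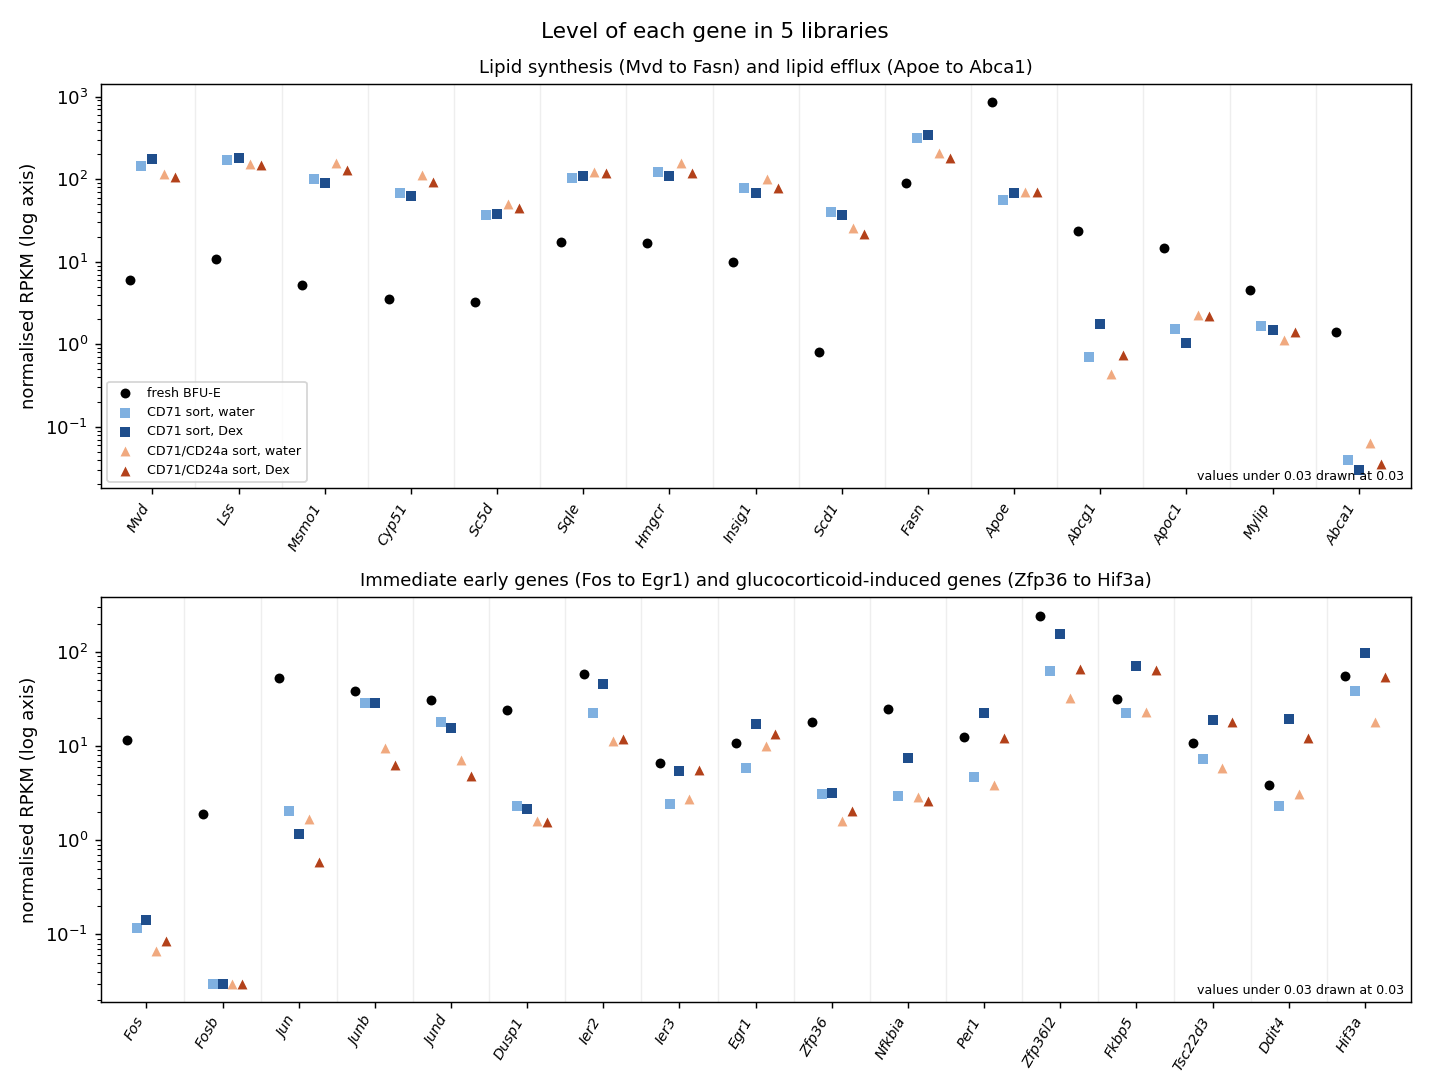
Level of named genes in the fresh library and 4 cultures, in normalised RPKM on a log axis, 1 point per library; values under 0.03 are drawn at 0.03. Upper panel, lipid genes, with fresh BFU-E apart from all 4 cultures; lower panel, immediate early and glucocorticoid-induced genes, where Fos and Jun are low in all 4 cultures and Per1 and Fkbp5 are high in both Dex cultures.

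Promoter letters are shown for 3 genes on the glucocorticoid-induced list: Per1, whose loss was prevented, and Dusp1 and Zfp36, whose losses were kept. Each is the 250 bases upstream of the RefSeq gene start on GRCm38.p6, 5′ to 3′ along the gene's strand. Capitals mark TGACGTCA, the cyclic AMP response element, in Dusp1 and a CArG box, the serum response element core, in Zfp36; Per1 holds none of the motifs searched. The positions are chr11:69098699-69098948 (plus strand) for Per1, chr17:26508473-26508722 (minus strand) for Dusp1 and chr7:28379229-28379478 (minus strand) for Zfp36.
Per1: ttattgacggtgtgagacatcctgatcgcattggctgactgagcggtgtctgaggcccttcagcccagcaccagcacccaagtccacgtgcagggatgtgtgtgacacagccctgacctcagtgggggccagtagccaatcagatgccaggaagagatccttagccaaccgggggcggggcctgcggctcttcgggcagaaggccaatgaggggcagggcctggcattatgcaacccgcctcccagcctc
Dusp1: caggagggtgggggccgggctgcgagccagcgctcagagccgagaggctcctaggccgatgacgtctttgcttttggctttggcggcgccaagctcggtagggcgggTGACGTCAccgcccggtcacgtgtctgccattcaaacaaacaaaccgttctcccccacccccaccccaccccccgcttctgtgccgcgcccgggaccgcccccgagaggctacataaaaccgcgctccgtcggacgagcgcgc
Zfp36: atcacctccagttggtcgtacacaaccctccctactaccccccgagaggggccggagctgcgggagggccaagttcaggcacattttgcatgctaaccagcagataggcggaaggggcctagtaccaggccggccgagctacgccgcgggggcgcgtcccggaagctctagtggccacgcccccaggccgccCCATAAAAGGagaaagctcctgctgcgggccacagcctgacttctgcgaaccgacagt
Both strands were searched in windows of this length for TGACGTCA, the CArG box, ACANNNTGT (the core of the glucocorticoid receptor palindrome) and the full palindrome, which contains that core. Of 12 prevented losses, 9 had a promoter in the table, and 0 of 9 held any of the 4. Among the 346 kept losses with a promoter, 16 held ACANNNTGT (4.62%), 9 held TGACGTCA (2.60%) and 6 held a CArG box (1.73%). Among the 8134 expressed genes with a promoter the shares were 3.36%, 2.84% and 1.07%, and over all 27025 promoters 5.91%, 1.62% and 1.40%. The kept losses thus lie above the one background and below the other for ACANNNTGT, and the reverse for TGACGTCA.

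The list of cholesterol efflux genes and genes tied to the sterol-sensing receptor LXR had a median below fresh in all 4 cultures. Of 8 compared, 5 were 2-fold lower in both Dex cultures than in fresh cells and 0 higher, against 5.39% and 2.45% of all genes. The median was -1.22, and those 5 (Apoe, Abca1, Abcg1, Mylip and Apoc1) were all kept losses. Apoe, the apolipoprotein that carries cholesterol out of cells, was at 862 in fresh BFU-E, 56.6 and 70.1 with water, and 67.5 and 70.6 with Dex. With Dex it was 0.0784 times fresh (0.0740 to 0.0829) and 0.0819 times fresh (0.0784 to 0.0856). Abcg1, a cholesterol exporter, was at 23.8 in fresh cells, 0.692 and 0.436 with water, and 1.75 and 0.740 with Dex. Apoe is also made by hepatocytes and macrophages, whose markers were higher in fresh BFU-E as given above. Their part in this difference was not tested.

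Genes of cholesterol and fatty acid synthesis were higher in all 4 cultures, and this list had the largest median of those compared. Of 26 compared, 24 were 2-fold higher and 0 lower in both Dex cultures than in fresh BFU-E, with a median of 2.66. The shares over all genes were 2.45% and 5.39%. The same 24 were culture gains and all were kept. Mvd, an enzyme of the mevalonate pathway, was at 5.99 in fresh cells, 143 and 115 with water, and 174 and 105 with Dex. Its Dex levels were 29.0 times fresh (25.1 to 33.4) and 17.6 times fresh (15.3 to 20.3). Cyp51, the lanosterol demethylase, was at 3.51, then 68.7 and 111, then 62.4 and 93.3, and Scd1, the stearoyl-CoA desaturase, at 0.802, then 40.1 and 25.5, then 36.9 and 21.4. limma called 0 of these 26 genes with Dex in either direction. Reads of Fdps and Acat2 are less certain, since 85.4% and 50.1% of their short sequence words also occur elsewhere in the annotated transcripts.

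Of 32 stem and progenitor genes compared, 10 were 2-fold lower and 0 higher in both Dex cultures than in fresh cells. This stands against 5.39% lower and 2.45% higher over all genes. The median was -0.91. Of 9 culture losses on this list 6 were kept, and 0 were prevented. Both counts are near the shares of all losses, 68.2% kept and 1.82% prevented. The lower genes included Gata2, Cd34, Cd27, Flt3, Erg, Lmo2, Myb, Mycn and Tgfbr3. Gata2, a transcription factor of early progenitors, was at 82.9 in fresh BFU-E, 24.7 and 41.6 with water, and 19.7 and 20.3 with Dex. Its 2 Dex values lie below both water values, though the Dex difference of -0.78 did not pass limma's threshold (adjusted p = 0.062). Myb, which sustains progenitor proliferation, was at 220 in fresh cells and between 73.8 and 83.7 in the 4 cultures. Over the 3 pairs 1 of the 27 members tested, Kit, rose and 4 fell in limma, against 1.39% and 0.629% of all genes. Lmo2, an adaptor that bridges GATA and TAL1 proteins, fell by 0.69 on the log2 scale (adjusted p = 0.0097), and stood at 206 in fresh cells, 134 and 169 with water, and 90.4 and 102 with Dex. The Cd34 and CD41 (Itga2b) proteins were gated out in every sort. Their messages were at 12.8 and 44.0 in fresh cells and at 1.87 to 2.27 and 13.8 to 18.9 in the cultures.

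Among leukocyte genes, 7 of 25 on the actin and cytoskeleton list were 2-fold lower and 1 higher in both Dex cultures than in fresh BFU-E (median -0.87). On the MHC class I and immunoproteasome list it was 8 and 1 of 25 (median -0.74). Both stand against 5.39% lower and 2.45% higher over all genes. Coro1a, an actin regulator of blood cells, was at 88.6 in fresh cells, 27.1 and 22.0 with water, and 31.3 and 17.1 with Dex. Vim, the intermediate filament vimentin, was at 355, then 93.5 and 184, then 102 and 163. Tap1, the peptide transporter of antigen presentation, was at 24.2, then 4.86 and 4.36, then 7.85 and 5.16. Mpo, the neutrophil myeloperoxidase, moved in the same direction, at 71.5 in fresh cells, 13.4 and 4.51 with water, and 12.8 and 4.21 with Dex.

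Of 446 gains, 210 were kept (2.05% of all genes and 47.1% of the gains), 7 were prevented (0.0683%) and 10 partly prevented (0.0976%). Another 226 (50.7% of the gains) fell in none of these classes, and 7 kept gains were also partly prevented. Among the 7, Grtp1, a Rab GTPase-activating protein, was at 4.36 in fresh BFU-E, 16.6 and 12.6 with water, and 5.52 and 4.65 with Dex. Tgm1, a transglutaminase, was at 3.20, then 9.60 and 8.60, then 4.44 and 4.34. Magee2 was at 0.220, then 2.63 and 2.31, then 0.287 and 0.252. Rasl11a was a further member, and 1 had no gene symbol. The last pair, Rps27 and Ppia, share 98.7% and 42.5% of their sequence words with other transcripts, and are uncertain. The CD71 water library also held Rps27 at 151 against 11.6 or less in the other 4.

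The partly prevented gains held beta globins and a pair of cytokine receptor subunits. Hbb-bt, an adult beta globin chain, was at 14.3 in fresh BFU-E, 822 and 119 with water, and 371 and 43.8 with Dex. Hbb-b2 is a near-identical copy with 843 and 122, then 381 and 44.8, and the pair counts as 1 observation. The fresh level was the lowest of the 5 in both. The alpha globin Hba-a1 was not a gain in both sorts, at 18.6 in fresh cells, 281 and 5.12 with water, and 98.7 and 4.73 with Dex. Hbb-bt fell with Dex by 1.57 on the log2 scale (limma adjusted p = 0.012). The class rule already asks for a fall in 2 of the 3 pairs, so this call is not separate evidence. Csf2rb, the shared beta chain of the IL-3, IL-5 and GM-CSF receptors, and Csf2rb2, an IL-3 receptor beta chain, also resemble each other. Csf2rb was at 1.54 in fresh cells, 17.9 and 12.4 with water, and 8.83 and 7.62 with Dex. Cpd, a carboxypeptidase, was at 3.50, then 47.8 and 36.7, then 20.4 and 18.9. Tfrc, the transcript of CD71 on which the cells were gated low, was at 18.9 in fresh cells, 201 and 228 with water, and 114 and 167 with Dex. Its Dex difference of -0.55 missed limma's threshold (adjusted p = 0.054).

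With Dex only, 11 genes were 2-fold above fresh BFU-E (0.107%) and 2 were 2-fold below (0.0195%). Mmp2, a matrix metalloproteinase, was at 0.218 in fresh cells, 0.162 and 0.0759 with water, and 6.67 and 5.29 with Dex. Arhgef3, a guanine nucleotide exchange factor, was at 3.26, then 2.15 and 2.14, then 15.5 and 18.6. Ddit4, an inhibitor of mTORC1 that both glucocorticoids and hypoxia induce, was at 3.91, then 2.34 and 3.09, then 19.4 and 12.2. Pnmt, which makes adrenaline, was taken as 0 in fresh cells and in both water cultures, and was at 3.82 and 1.41 with Dex. In the CD71/CD24a water culture that 0 is a deposited value of exactly 1 read as 0, so the contrast there rests on this reading. The others included Hopx, Gsta4, Ncoa7, Serpina3f, Aqp3 and Slfn2. Of the 2 below fresh, Nol4l was at 10.0 in fresh cells, 8.64 and 7.81 with water, and 4.35 and 3.79 with Dex. H4c11, a histone gene with 29.0% of its sequence words shared, stood at 1.15 in fresh cells, 1.58 and 1.18 with water, and 0 with Dex. Its 0 in the CD71/CD24a sort is likewise an exact 1 read as 0.

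The largest losses that no list above describes were Prss50, Gm2a, Rasgrp2, Selplg, Ramp1, Mxd4 and Slc22a3, all kept. Selplg, the selectin ligand of leukocytes, was at 45.8 in fresh BFU-E, 7.35 and 3.88 with water, and 5.64 and 3.60 with Dex. Mxd4, an antagonist of MYC, was at 14.1, then 1.12 and 0.822, then 1.38 and 1.22. Rasgrp2, an exchange factor for Rap GTPases, was at 29.3, then 3.75 and 3.64, then 3.16 and 2.96. All 7 stood above every culture in the fresh library.

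On the side of higher genes, Cd24a, whose protein the second sort was gated on, was at 23.4 in fresh BFU-E, 165 and 103 with water, and 245 and 267 with Dex. It rose with Dex by 1.01 ± 0.15 (SE, n = 3 pairs, limma adjusted p = 0.031) and stood 10.5 times (9.73 to 11.3) and 11.4 times (10.7 to 12.3) above fresh. Serpina3g, a serine protease inhibitor with 28.9% of its sequence words shared, was at 1.38, then 8.49 and 11, then 34.6 and 44.4. Both were further from fresh with Dex than with water. Arhgdig was at 1.63 in fresh cells and between 20.6 and 33.6 in the 4 cultures.

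The next counts stand beside 2.45% higher and 5.39% lower over all genes. Of 25 ATF4 and stress response genes 5 were 2-fold higher and 0 lower in both Dex cultures (median 0.48). Trib3, a pseudokinase of that response, was at 0.597 in fresh cells, 7.05 and 7.33 with water, and 6.98 and 6.60 with Dex, and Asns, asparagine synthetase, at 47.0, then 143 and 106, then 146 and 119. Of 11 heat shock chaperones 2 were higher (median 0.60), both with shared sequence, and of 23 ribosome biogenesis genes 1, Odc1, was higher (median 0.50). Among 21 targets of erythropoietin and STAT5, 3 were higher (Cish, Socs1 and Cdkn1a) and 1 lower (median 0.33). Socs1, a feedback inhibitor of cytokine receptors, was at 0.921 in fresh BFU-E, 4.99 and 1.51 with water, and 32.6 and 5.22 with Dex, and rose by 1.72 ± 0.23 (SE, n = 3 pairs, limma adjusted p = 0.021). Cdkn1a, the cell cycle inhibitor p21, was at 1.79, then 10.6 and 15.4, then 7.15 and 8.31, and fell with Dex by 0.75 on the log2 scale (limma adjusted p = 0.020).

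The counts that follow stand beside 5.39% lower and 2.45% higher over all genes. The remaining lists gave 2 lower and 2 higher of 17 receptors and glucocorticoid-sensing genes (median -0.29), 1 and 3 of 22 heme and iron genes (0.05) and 3 and 3 of 21 red cell membrane genes (-0.02). Of 13 inflammatory genes 2 were lower and 2 higher (-0.48), and of 11 cell cycle inhibitors 2 were lower and 1 higher (-0.51). Il3ra, the IL-3 receptor alpha chain, was at 9.74 in fresh BFU-E, 3.36 and 1.36 with water, and 3.70 and 1.42 with Dex. It thus stood lower in every culture while the shared beta chain Csf2rb stood higher. Of the marker lists, 2 of 4 neutrophil and mast cell, 1 of 2 macrophage, 3 of 14 megakaryocyte, 4 of 9 hepatocyte, 2 of 6 endothelial and stromal and 2 of 2 lymphoid genes compared were 2-fold lower in both Dex cultures. Members entered at 1 RPKM or more in any of the 3 libraries, so a marker high in fresh cells alone both enters and counts as lower. The marker counts are therefore not a test of marker loss. 1 megakaryocyte marker, Itgb3, was higher, at 0.821 in fresh cells, 1.41 and 3.02 with water, and 7.09 and 15.3 with Dex.

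None of the 25 oxidative phosphorylation genes or 19 glycolysis genes was 2-fold away in both Dex cultures, where the whole table gives 5.39% lower and 2.45% higher. Of 29 replication and mitosis genes 1, Ccnb1, was higher, and of 22 erythroid regulators 1, Lmo2, was lower, with a median of -0.50. Gata1, the master erythroid factor, was at 169 in fresh cells and between 130 and 136 in the 4 cultures. Some erythroid genes stood above fresh. Rhag, of the Rh complex, was at 16.0 in fresh cells, 66.2 and 53.1 with water, and 108 and 120 with Dex. Fth1, the ferritin heavy chain, was at 722 in fresh cells and at 2591 and 3511 with Dex. Both rose with Dex over the 3 pairs, Rhag by 0.97 ± 0.10 (SE, limma adjusted p = 0.0088) and Fth1 by 0.79 ± 0.10 (adjusted p = 0.014).

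**Figure D4:**
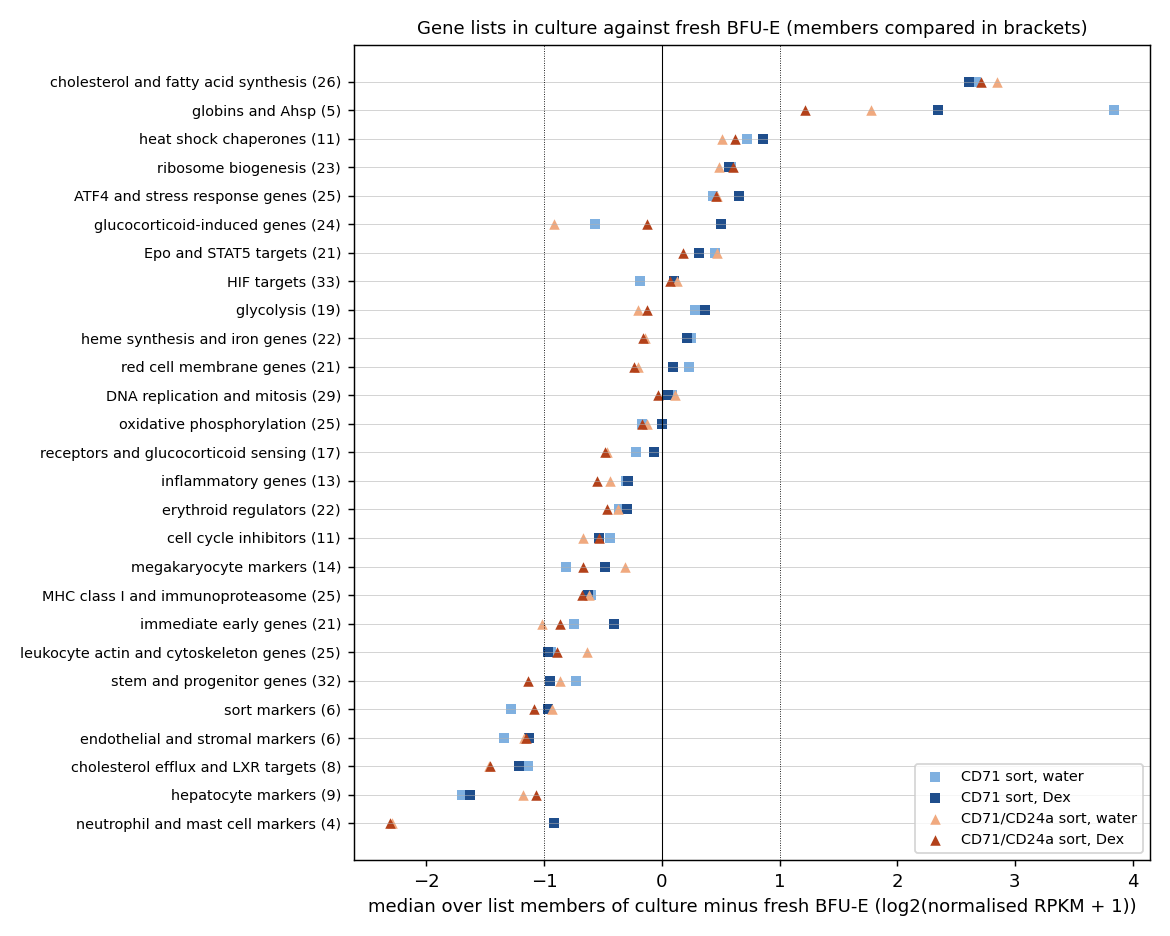
Median over each gene list of the difference between culture and fresh BFU-E on the log2(normalised RPKM + 1) scale, for the 4 cultures, with the number of members compared in brackets; dotted lines mark 2-fold. Lipid synthesis sits between 2.61 and 2.85 in all 4 cultures, and hepatocyte markers and cholesterol efflux genes sit below -1 in all 4. The hepatocyte median covers the 9 of 18 markers that passed the filter.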

How the data were processed

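Paired-end mRNA libraries were made from each sample, per the labels' protocols. The authors deposited RPKM per transcript record, with build mm9 per the submitters' processing notes; aligner and counter are not given in the sources used here. No value of 0 occurs in the 4 files of the CD71/CD24a sort, and their many values of exactly 1 were read as 0. The 23041 records were reduced to 19840 names by the record with the highest mean, and levels were divided by median-ratio factors from 6888 genes at 1 or more in all 9 libraries. Differences used a pseudocount of 1, and genes needed 1 RPKM or more in any library compared. Depth came from the steps of low RPKM values: 66.8 to 69.8% of those worth up to 10 reads were whole within 0.1 read, against 20% by chance, so reads were not taken as recovered. Dex was tested with limma 3.58.1 (R 4.3.3) on log2 values with the culture pair as a block, since the cells of 1 sort were divided between the arms, over genes with a mean of 1 or more, at a Benjamini-Hochberg adjusted p of 0.05. p-values measure the spread between these pairs, which may be technical.

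Named genes were the 12 largest differences each way, members of each class, the 4 largest of each list, fixed genes of interest and those nearest the threshold; a few list members beyond these, the Dex-only and partly prevented gains were chosen after their values were seen. The members and lists were chosen with earlier results of these data known. Both scripts for classes and for limma were tested on simulated data. Symbols came from RefSeq or GENCODE M21 names. Alternatives covered pseudocount, scaling, exact 1, filters, fold, records, shared sequence and each culture left out. A few list members are not reported here by name.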

Additional observations from a re-analysis of the deposited data

Results flagged for a closer look

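In 7 genes the 2 Dex cultures moved at least 2-fold from fresh BFU-E in opposite directions, up in the CD71 sort and down in the CD71/CD24a sort; the difference was not tested, because each sort is 1 library. On the log2(normalised RPKM + 1) scale, Dex culture minus fresh, Hba-a1 was 2.35 and -1.78 and its near-identical copy Hba-a2 was 2.34 and -1.77. Mt2, a metallothionein, was 2.31 and -1.30, and Cebpb, a transcription factor of myeloid cells, was 1.81 and -1.11. The histone gene H2ac10 was 1.38 and -1.30, Atp6v0c, a proton pump subunit, was 1.36 and -1.75, and the cytokine Mif was 1.30 and -1.05. The split was not particular to Dex, since all 7 stood on the same sides of fresh with water. Water minus fresh was 3.85 and -1.68 for Hba-a1, 0.84 and -2.45 for Mt2, and 1.56 and -0.82 for Cebpb. It was 2.33 and -1.39 for H2ac10, 1.31 and -1.40 for Atp6v0c, and 1.03 and -0.57 for Mif. The sorts differ in gate, and fresh BFU-E shares the gate of the CD71 sort only, so gate and culture run cannot be told apart.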

How the results depend on the processing

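A pseudocount of 0.1, which weighs low genes more, gave 896 lower and 383 higher genes with Dex, 1011 losses, 27 prevented, 36 partly prevented, 745 kept, 10 with Dex only, and 71 losses higher in the DMOG pair. A 1.5-fold rule gave 1478, 798, 1707, 22, 14, 1284, 4 and 49 in the same order, and its 22 prevented losses held 8 of the 12 (without Gna14, Ndrg1, Trim58 and Znrf1). limma on fresh BFU-E against the 2 Dex cultures, where the fresh library is assumed to vary like the cultures, called 349 lower and 155 higher genes; 328 and 138 of them were among the 2-fold genes. Requiring 2-fold over water left 6 prevented losses (without Gna14, Ier3, Ndrg1, Sh2d4a, Trim58 and Znrf1), 4 partly prevented, 1 with Dex only, 3 gains prevented and 11 losses higher in the DMOG pair; this alternative and the next were chosen after seeing the data. Without genes of shared sequence 163 genes were higher and 1 was lost with Dex only. Losses with Dex only were also 1 with factors from the libraries compared, with exact 1 kept and at 5 RPKM or more, where 4 gains were prevented.

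Leaving out the CD71 or the CD71/CD24a cultures gave 770 to 1381 lower and 381 to 1044 higher genes, 911 to 1302 losses, 26 to 65 prevented, 12 to 19 partly prevented, 619 to 1105 kept, 25 to 26 with Dex only, 23 to 164 gains prevented and 38 to 41 losses higher in the DMOG pair, since 1 culture then decides. The 12 prevented losses were among those called in both cases. The rule fixes this in advance, since it asks for every condition in both sorts, so it is no sign of robustness. In limma, leaving out each pair gave 109 to 491 risen and 35 to 681 fallen genes, the most without the CD71 pair (491 and 681). With no replicate block 12 rose and 2 fell, and with no filter on low values 18 and 3; the cause was not tested. Among lists with 3 or more members compared, 7 had a median of 1 or more in size, and 2 with no filter, where the neutrophil and mast cell median turned from -1.62 to 0.0029 as unexpressed members entered. Factors from the libraries compared left 9 prevented losses, without Ank, Ier3 and Sh2d4a. Values under about 3 reads are not resolved at these depths.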
